A study of Mus musculus with 4 samples.

Results

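The interferon-stimulated genes described here are 36 mouse genes that interferon signalling is known to induce, followed on 4 Affymetrix arrays of liver RNA. Their probe sets were found by gene symbol, and the list was chosen with earlier results of these data known. A single-symbol probe set was found for 33 of the 36, of 18193 genes named in this way, and each gene was read from its brightest probe set. Isg15, Oas1g and Ifi44 had no such probe set and have no value here. Ifit2 lay under the floor of the signal scale on each array, which left 32 members with a signal above the floor on at least 1 array.

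The mice carried Met alleles flanked by recombination sites together with a tamoxifen-activated Cre (METfl/fl: TamCre+/+, also written Metff/ff:ERCre+/+), and the control mice carried both as well. The treated group, labelled delta MET + EGFRi, had tamoxifen on 5 days to delete exon 16 of Met, 4 days of rest, and then the EGFR inhibitor canertinib in the diet at an intended 80 mg/kg/day. The control group were littermates given corn oil only, so the loss of Met, the tamoxifen, the canertinib and altered food intake cannot be told apart. Livers were taken at day 7 and day 10, counted from the start of canertinib in the treated group and from the end of the rest period in the controls, and 1 array was hybridised per group and day with RNA of pooled livers. The labels give neither age nor sex, nor how many animals made up a pool or which promoter drives the Cre. The 2 arrays of a group therefore differ in day as well, and p-values measure only the spread between these arrays.

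The median signal lay between 210.5 and 223.9 on the 4 arrays, and precision is limited by there being only 4 arrays. The log2 signals of any 2 arrays correlated across probe sets with r between 0.923 and 0.948. The hepatocyte marker Alb had signals between 71295 and 78532, and none of the 8 hepatocyte markers measured lay at the floor. The Met probe sets did not show lower signals in the treated group (975.5 and 1271 on the control arrays at days 7 and 10, 2433 and 2829 on the treated arrays, for the brighter of the 2). The platform annotation does not place those probes relative to exon 16, so these values do not check the deletion. In whole liver, fewer cells of a type and less RNA per cell cannot be told apart.

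Type I interferons signal through the receptor chains Ifnar1 and Ifnar2 and the kinases Jak1 and Tyk2 to a complex that includes Stat2 and Irf9 and binds the interferon-stimulated response element (ISRE). Interferon gamma acts through the gamma-activated site (GAS), and Irf1 carries part of that response onward. In the liver, hepatocytes, Kupffer cells and sinusoidal endothelial cells all answer interferon, and their products sense viral RNA, block viral entry, replication and release, attack vacuoles that hold pathogens, and present antigen.

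The 250 bases before the transcription start of 7 members are shown so that windows with an ISRE core, with a GAS motif, with both and with neither can be compared. Ifit1, Ifit3, Rsad2, Bst2 and Cmpk2 were the tested members with the lowest treated-minus-control differences, and for Igtp and Irf1 both treated arrays lay above both control arrays. The sequences are from RefSeq, build GRCm38.p6, written 5′ to 3′ on the gene's strand. Capitals mark each match to the ISRE core GAAANNGAAA or to the GAS motif TTCNNNGAA on either strand, overlapping matches included.
Ifit1 chr19:34640639-34640888, plus strand: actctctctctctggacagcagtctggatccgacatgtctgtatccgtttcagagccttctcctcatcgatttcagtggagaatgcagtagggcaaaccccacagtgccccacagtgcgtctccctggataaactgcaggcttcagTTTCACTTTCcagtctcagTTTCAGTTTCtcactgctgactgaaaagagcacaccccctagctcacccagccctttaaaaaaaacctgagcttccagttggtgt
Ifit3 chr19:34583279-34583528, plus strand: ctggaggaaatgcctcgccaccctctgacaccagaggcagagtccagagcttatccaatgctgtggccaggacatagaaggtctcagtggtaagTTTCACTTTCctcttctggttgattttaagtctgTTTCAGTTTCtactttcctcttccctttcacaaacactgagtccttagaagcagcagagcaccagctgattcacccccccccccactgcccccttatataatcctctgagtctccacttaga
Rsad2 chr12:26456453-26456702, minus strand: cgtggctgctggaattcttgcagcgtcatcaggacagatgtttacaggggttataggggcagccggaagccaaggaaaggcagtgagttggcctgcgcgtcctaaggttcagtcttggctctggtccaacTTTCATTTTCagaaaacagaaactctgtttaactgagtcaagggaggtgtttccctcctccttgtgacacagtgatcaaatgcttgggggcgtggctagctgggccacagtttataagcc
Bst2 chr8:71537473-71537722, minus strand: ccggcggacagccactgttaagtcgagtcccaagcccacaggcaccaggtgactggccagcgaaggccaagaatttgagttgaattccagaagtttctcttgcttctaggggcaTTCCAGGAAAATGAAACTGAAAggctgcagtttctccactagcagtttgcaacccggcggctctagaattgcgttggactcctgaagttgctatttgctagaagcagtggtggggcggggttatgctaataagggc
Cmpk2 chr12:26468965-26469214, plus strand: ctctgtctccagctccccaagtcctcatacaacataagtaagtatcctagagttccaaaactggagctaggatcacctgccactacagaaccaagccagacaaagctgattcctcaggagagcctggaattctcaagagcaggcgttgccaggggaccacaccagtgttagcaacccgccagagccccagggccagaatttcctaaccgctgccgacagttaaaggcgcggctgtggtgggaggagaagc
Igtp chr11:58199306-58199555, plus strand: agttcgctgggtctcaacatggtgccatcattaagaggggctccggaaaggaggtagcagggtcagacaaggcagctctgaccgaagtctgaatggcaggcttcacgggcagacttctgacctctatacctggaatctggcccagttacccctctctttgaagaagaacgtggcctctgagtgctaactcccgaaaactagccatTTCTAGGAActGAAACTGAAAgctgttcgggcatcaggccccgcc
Irf1 chr11:53769764-53770013, plus strand: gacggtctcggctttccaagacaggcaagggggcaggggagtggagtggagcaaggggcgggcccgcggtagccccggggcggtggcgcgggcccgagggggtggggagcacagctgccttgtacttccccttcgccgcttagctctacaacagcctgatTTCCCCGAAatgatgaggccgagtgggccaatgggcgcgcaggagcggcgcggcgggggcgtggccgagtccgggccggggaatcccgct
Ifit1 and Ifit3 each hold 2 copies of the ISRE core on the opposite strand, at -104 and -85 and at -156 and -122 from the start. Rsad2 holds 1 copy, and the Bst2 window holds 2 overlapping copies with a GAS match that overlaps the first of them. In Igtp a GAS match stands just before the ISRE core. In Irf1 these letters hold a GAS match and no ISRE core, and in Cmpk2 neither.

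A promoter window of 300 bases (250 before to 50 after the start) was matched for 27 of the 36 members. The ISRE core was present in a window of 16 of them (59.3%), against 1079 of 27025 genes with such a window (3.99%). The GAS motif was present in 7 of 27 members (25.9%), against 2582 genes (9.55%). A match describes these letters and shows neither binding nor activity. The 14 measured members with an ISRE core had log2 differences between treated and control, averaged over both days, from -1.66 to 0.48, with a median of 0.04. The 9 measured members with a window and no ISRE core ranged from -1.19 to 0.45, with a median of 0.06. Both treated arrays lay below both control arrays for 5 of the 14 and for 4 of the 9, beside 22.1% of all 16785 measured genes.

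The comparison of treated with control livers showed no shared direction among these genes. Ifit3, Ifit1, Cmpk2, Bst2, Rsad2, Dhx58, Oasl1, Tap1 and Gbp6, genes of RNA binding, nucleotide-directed and membrane-bound antiviral defence, antigen transport and vacuole defence, had lower signals on both treated arrays than on either control array. Ifitm3, Stat2, Xaf1 and Parp14 had their highest signal on the treated day 10 array. So had Irf1, Irf7, Irf9, Zbp1, Mx2, Gbp3, Gbp7, Irgm1, Iigp1, Ifi35 and Trim30a, some by a small margin. The share of all genes with this pattern was not counted. The median log2 difference of the 32 measured members was -0.17 at day 7, 0.16 at day 10 and 0.05 over both days, beside -0.04, 0 and -0.02 for all 16785 genes measured above the floor. Under the alternative scalings, floors and the mean of probe sets, the median at day 7 lay between -0.36 and -0.08. That at day 10 lay between 0.07 and 0.15, under the main value in each. The median over both days had no stable sign: it lay between -0.07 and 0.15 when 1 array was left out, negative without the control or the treated array of day 10.

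Over both days, limma with Benjamini-Hochberg adjustment (adjusted p under 0.05, 2 arrays against 2) was fitted to 11993 genes with a mean signal above about 204. It called none of the 27 members tested higher, beside 0.375% of all tested genes, and none lower, beside 0.283%. The lowest adjusted p among the members was 0.168, for Ifit3. At an unadjusted p under 0.05, 6 of 27 members were lower (Ifit3, Ifit1, Bst2, Cmpk2, Dhx58 and Oasl1), beside 6.15% of all genes, and 0 were higher, beside 5.93%. Gbp3, Gbp6, Ifit2, Mx1, Mx2 and Oasl2 lay under the brightness filter and were not tested. Of the members nearest that limit, Gbp6 had a mean log2 signal of 7.48, just under it, and Ifit3 one of 7.87, just above it.

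Counts without a test were these. Both treated arrays lay below both control arrays for 11 of 32 members (34.4%), beside 22.1% of all measured genes, and above them for 4 of 32 (12.5%), beside 19.0%. At day 7, 7 members were at least 2-fold lower, beside 7.36% of all genes, and 0 were at least 2-fold higher, beside 6.56%. At day 10, 3 members were at least 2-fold lower, beside 6.73%, and 2 at least 2-fold higher, beside 8.01%. Ifit3, Cmpk2 and Gbp6 were at least 2-fold lower at both days, 3 of 32 beside 1.51%, and 0 members were at least 2-fold higher at both days, beside 1.91%. Each day has 1 array per group, so these counts have no replicate check.

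**Figure D1:**
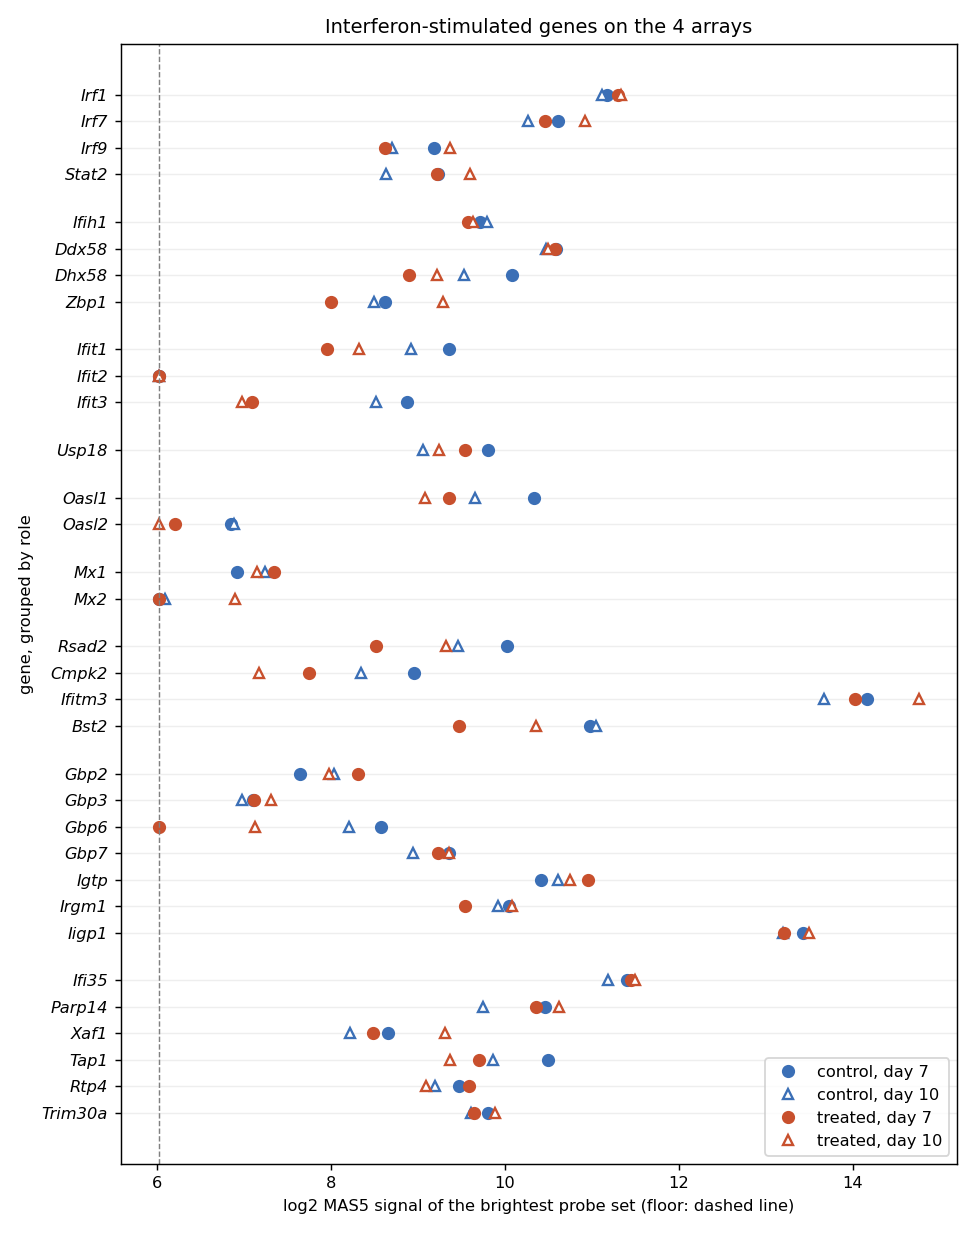
Log2 MAS5 signal (horizontal axis) of the 33 members with a probe set of their own (vertical axis, grouped by role) on each array. Blue marks are control and red marks treated arrays, circles are day 7 and open triangles day 10, and the dashed line is the floor of 64.8. Levels are not comparable between genes. For Ifit1, Ifit3, Cmpk2 and Bst2 both red marks lie left of both blue marks.

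Of the IFIT proteins, which bind viral RNA, Ifit3 showed the largest difference among the tested members. Its signal was 471.1 and 366.8 on the control arrays at days 7 and 10, and 136.8 and 125.9 on the treated arrays. Both treated arrays thus lay well under both control arrays, by 3.44-fold at day 7 and 2.91-fold at day 10. The log2 difference was -1.66 ± 0.38 (limma SE, 2 arrays per group; adjusted p = 0.168). Ifit1 was at 654.5 and 484.5 on the control arrays and at 247.8 and 321.0 on the treated arrays. The groups did not overlap, and the gap narrowed from 2.64-fold at day 7 to 1.51-fold at day 10. Over both days the Ifit1 difference was -0.998 ± 0.30 (limma SE; adjusted p = 0.273). Ifit2, the third member measured, was between 10.5 and 21.7, under the floor on each array, and gives no comparison. Ifit3b, a near copy of Ifit3, had no probe set of its own, and its signal and that of Ifit3 cannot be told apart.

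Among the effectors that act on membranes and nucleotides, Cmpk2, a mitochondrial nucleotide kinase encoded beside Rsad2, had signals of 494.6 and 325.6 in the controls and 214.9 and 144.2 in the treated livers. Both treated arrays lay below both controls, and the fold was nearly equal at the days, 2.30 and 2.26. The log2 difference was -1.19 ± 0.41 (limma SE; adjusted p = 0.330). Rsad2 (viperin), which makes a chain-terminating nucleotide, was at 1043 and 706.7 in the controls and at 365.3 and 641.8 in the treated livers. Here the treated day 7 array stood apart, 2.85-fold under its control, while at day 10 the fold was 1.10 and the treated signal lay just under the control. The Rsad2 difference over both days was -0.83 ± 0.35 (limma SE; adjusted p = 0.422).

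Bst2 (tetherin), which holds budding virus at the cell surface, had control signals of 2023 and 2117 and treated signals of 712.0 and 1317. The control arrays were close to each other, and both treated arrays lay below them, by 2.84-fold at day 7 and 1.61-fold at day 10. The log2 difference was -1.10 ± 0.32 (limma SE; adjusted p = 0.260). Without the treated day 10 array it was -1.54 with an adjusted p of 0.0141 in limma, a fit in which the spread came from the 2 control arrays alone. Ifitm3, which blocks virus at endosomes, was at 18328 and 13057 in the controls and at 16687 and 27914 in the treated livers. The treated day 10 array was the highest and the treated day 7 array lay between the controls. Ifitm3 was 1.10-fold lower at day 7 and 2.14-fold higher at day 10, and over both days its log2 difference was 0.48 ± 0.32 (limma SE; adjusted p = 0.601).

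Of the cytosolic sensors of viral RNA, Dhx58 (LGP2) was at 1082 and 742.0 in the controls and at 478.2 and 597.7 in the treated livers. The groups did not overlap, with a 2.26-fold gap at day 7 and a 1.24-fold gap at day 10 (log2 difference over both days -0.74 ± 0.27, limma SE; adjusted p = 0.362). Ifih1 (MDA5) was lower on both treated arrays by a small margin, 760.6 and 795.7 against 841.9 and 885.9 in the controls. Ddx58 (RIG-I) lay between 1417 and 1540 on the 4 arrays, with overlapping groups. Zbp1, which binds Z-form nucleic acids, had control signals of 393.0 and 360.1 and treated signals of 256.1 and 624.2. The treated arrays were the lowest and the highest of the 4, so the groups overlapped. Zbp1 was thus at a log2 difference of -0.62 (day 7) and 0.79 (day 10), and without the treated day 10 array its mean over both days turned from 0.09 to -0.55.

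The 4 transcription factors among the members, Stat2, Irf9, Irf7 and Irf1, lay above their controls at day 10, and at day 7 only Irf1 did. The share of all measured genes above control at day 10 was not counted, and their median difference was 0. Stat2, part of the ISRE-binding complex, was at 602.2 and 395.7 in the controls and at 594.6 and 776.7 in the treated livers. At day 7 the groups were level, and at day 10 the treated array lay 1.96-fold above its control. The Stat2 difference over both days was 0.48 ± 0.30 (limma SE; adjusted p = 0.576), but a second Stat2 probe set gave -0.49. Irf9, the DNA-binding partner in that complex, was at 580.7 and 415.0 in the controls and at 394.6 and 663.2 in the treated livers. Its treated arrays were again the lowest and the highest of the 4, with log2 differences of -0.56 at day 7 and 0.68 at day 10. The Irf9 mean of 0.06 became -0.18 without the control day 10 array and -0.32 without the treated day 10 array. Irf7, which drives interferon alpha genes, showed differences of -0.15 and 0.66 at days 7 and 10. Irf1, an early target of interferon gamma, was at 2316 and 2223 in the controls and at 2533 and 2595 in the treated livers, so that both treated arrays lay above both controls by a margin under its SE (log2 difference 0.18 ± 0.20, limma SE; adjusted p = 0.764).

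Of the oligoadenylate synthetase family, Oasl1, which limits the translation of Irf7, was at 1291 and 806.3 in the controls and at 657.2 and 540.8 in the treated livers. The groups did not overlap, with a 1.96-fold gap at day 7 and a 1.49-fold gap at day 10 (log2 difference -0.77 ± 0.29 over both days, limma SE; adjusted p = 0.370). Oasl2 was at 115.5 and 118.3 in the controls and at 73.9 and 37.5 in the treated livers. Both treated arrays lay below the controls, the day 10 one under the floor, which makes the gap at least 1.83-fold there. Oasl2 was too dim to be tested.

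Usp18, the protease that removes ISG15 from proteins and damps the type I receptor, was at 897.0 and 533.8 in the controls and at 747.7 and 604.2 in the treated livers, inside the control range (log2 difference -0.04 ± 0.31, limma SE; adjusted p = 0.972). The Mx proteins are dynamin-like GTPases that trap viral nucleocapsids. Mx1 lay between 120.6 and 162.1 on the 4 arrays with overlapping groups. Mx2 was at 54.2 and 68.3 in the controls and at 63.2 and 119.3 in the treated livers, so that both day 7 arrays lay under the floor and only the treated day 10 array was clearly above it. The Mx2 mean of 0.40 became -0.038 without that array. Neither gene was tested.

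Among the guanylate-binding proteins, which attack pathogen vacuoles, Gbp6 was at 380.1 and 295.6 in the controls and at 52.9 and 140.0 in the treated livers. Both treated arrays lay below both controls, and the day 7 one lay under the floor. Gbp6 was at least 5.87-fold lower at day 7, counted from the floor, and 2.11-fold lower at day 10, and was not tested because of its low mean signal. Its family members did not share this: Gbp2 had differences of 0.67 and -0.07 at days 7 and 10, Gbp3 0.02 and 0.33, and Gbp7 -0.13 and 0.42. The immunity-related GTPases Igtp, Irgm1 and Iigp1, which act on the same vacuoles, also differed from one another. Igtp was at 1369 and 1565 in the controls and at 1987 and 1727 in the treated livers. Both treated arrays were above both controls, with a log2 difference of 0.34 ± 0.21 (limma SE; adjusted p = 0.578). Irgm1 (-0.17) and Iigp1 (0.04) had overlapping groups.

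Tap1, which carries peptides to class I molecules, was at 1448 and 932.8 in the controls and at 833.4 and 662.6 in the treated livers. The groups did not overlap, and the treated day 7 array lay near the control day 10 array (log2 difference -0.64 ± 0.28, limma SE; adjusted p = 0.440). Parp14, a mono-ADP-ribosyltransferase, was at 1408 and 863.7 in the controls and at 1315 and 1581 in the treated livers. Only the control day 10 array stood apart, below the other 3, and the Parp14 difference was -0.10 at day 7 and 0.87 at day 10 (0.39 ± 0.29 over both days, limma SE; adjusted p = 0.644). Xaf1, which binds the apoptosis inhibitor XIAP, was at 404.6 and 298.9 in the controls and at 357.8 and 634.4 in the treated livers. Its treated day 10 array was the highest, 2.12-fold over its control, and the treated day 7 array lay between the controls. The Xaf1 log2 difference over both days was 0.45 ± 0.36 (limma SE; adjusted p = 0.667), and a second probe set gave -0.26. Ifi35 was slightly higher on both treated arrays (0.18), but its groups overlapped in its other probe sets (0.14 and 0.16). Rtp4 (0.01) and Trim30a (0.06) were nearly level, while a second Trim30a probe set above the brightness filter gave 0.38.

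**Figure D2:**
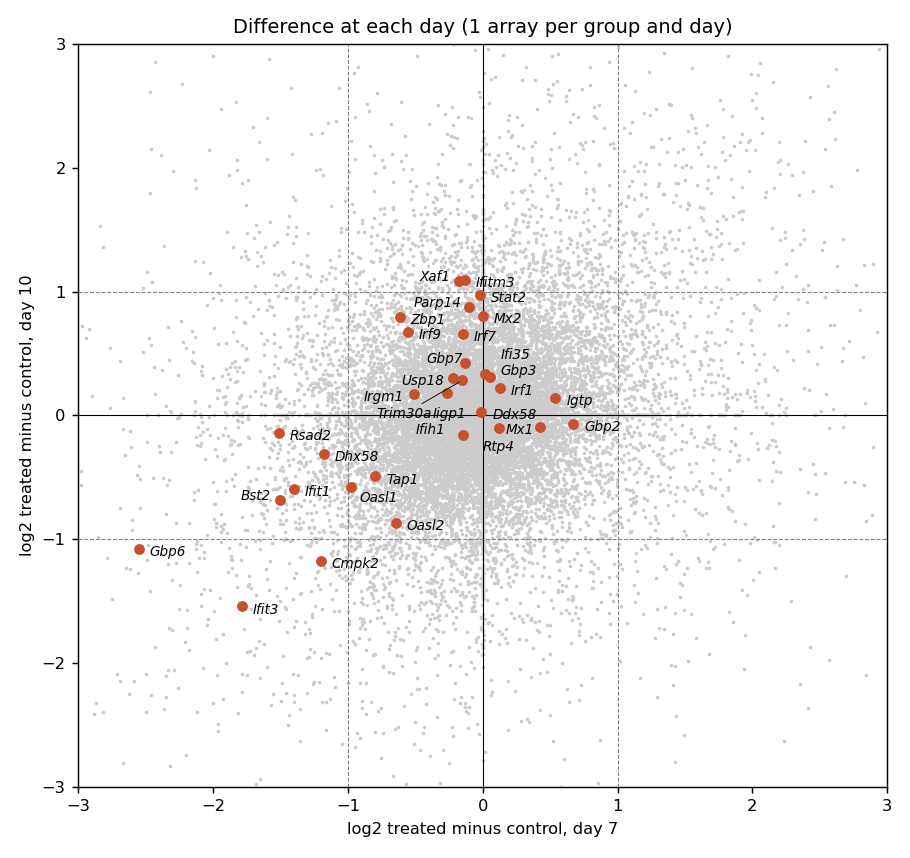
Log2 treated-minus-control difference at day 7 (horizontal axis) and at day 10 (vertical axis) for the 32 measured members (red, named) and all measured genes (grey), each from 1 array per group and day. Dashed lines mark 2-fold. Ifit3, Cmpk2 and Gbp6 lie beyond 2-fold lower on both axes, and Ifitm3 and Xaf1 lie beyond 2-fold higher on the day 10 axis only. Genes beyond a log2 difference of 3 fall outside the axes.

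The days differed within each group. On the control arrays, 25 of 32 members were lower at day 10 than at day 7, beside 50.7% of all measured genes, and the median change was -0.31 on the log2 scale, beside -0.01 for all genes. On the treated arrays, 21 of 32 were higher at day 10 than at day 7, beside 51.2%, with a median of 0.22, beside 0.01. As the treated shift minus the control shift, the treated-minus-control difference was higher at day 10 than at day 7 for 26 of 32 members, beside 53.4%. Under the alternative scalings, floors and the mean of probe sets these counts lay between 22 and 25, between 18 and 21, and between 23 and 26. Each day and group is 1 array, so the day-by-treatment difference could not be tested.

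The 5 members whose difference changed most between the days were Gbp6, Zbp1, Rsad2, Xaf1 and Irf9. Their difference was higher at day 10 than at day 7 by 1.23 for Irf9 and by 1.41 for Zbp1 on the log2 scale, with Xaf1 and Rsad2 between them. For Gbp6, whose treated day 7 signal lay under the floor, it was higher by at least 1.47. For Gbp6 and Zbp1 the treated arrays supplied most of this, with shifts of at least 1.11 and of 1.29 against -0.36 and -0.13 in the controls. For Parp14 the control arrays supplied most, with a shift of -0.71 against 0.27 in the treated livers. The differences of Ifit3 and Cmpk2 changed by 0.24 and 0.03, and Cmpk2 was lower at day 10 than at day 7 by about the same amount in both groups (-0.60 and -0.58).

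**Figure D3:**
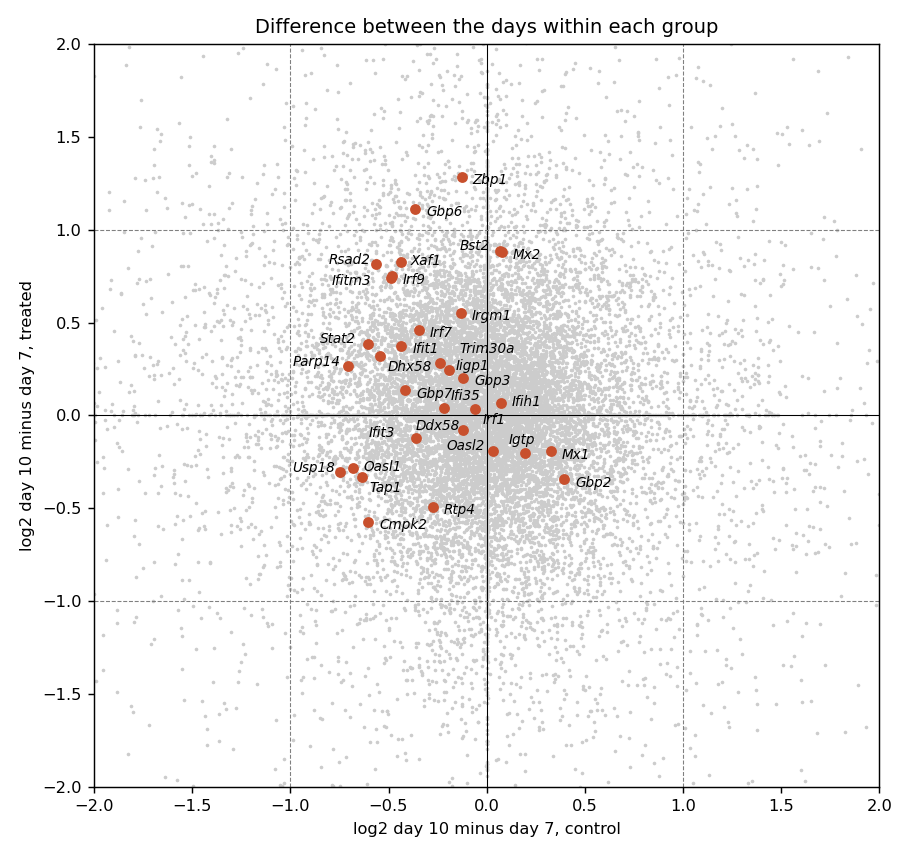
Log2 change from day 7 to day 10 in the control group (horizontal axis) and in the treated group (vertical axis) for the 32 measured members (red, named) and all measured genes (grey), each from 1 array per day. Of the members, 25 lie left of the vertical zero line and 21 above the horizontal one. Dashed lines mark 2-fold, and genes beyond a log2 change of 2 fall outside the axes.

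For 16 members more than 1 probe set carried the gene's name, and they did not always give 1 answer. A dimmer probe set of Cmpk2 gave -1.71 over both days, and one of Dhx58 gave -1.52, while the remaining one of Dhx58, at or near the floor, gave -0.02. The other Gbp6 probe set gave -0.32, against -1.82 in the brightest, and was above the floor on 1 array only. The 3 other probe sets of Tap1, all under the brightness filter, gave -0.16, -0.12 and 0, against -0.64. Rsad2 was at -0.83 in its brightest probe set and at -0.30 and -0.27 in the others. Stat2 (0.48 and -0.49) and Xaf1 (0.45 and -0.26) changed sign between probe sets, both of which lay above the brightness filter. Iigp1 was at 0.04 and -0.46, Ddx58 at 0.01 and -0.59 in its brighter pair, and Gbp7 at 0.15 and 0.58. Ifit1, Ifit3, Bst2 and Oasl1 had a single probe set each, so their values have no such check.

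**Figure D4:**
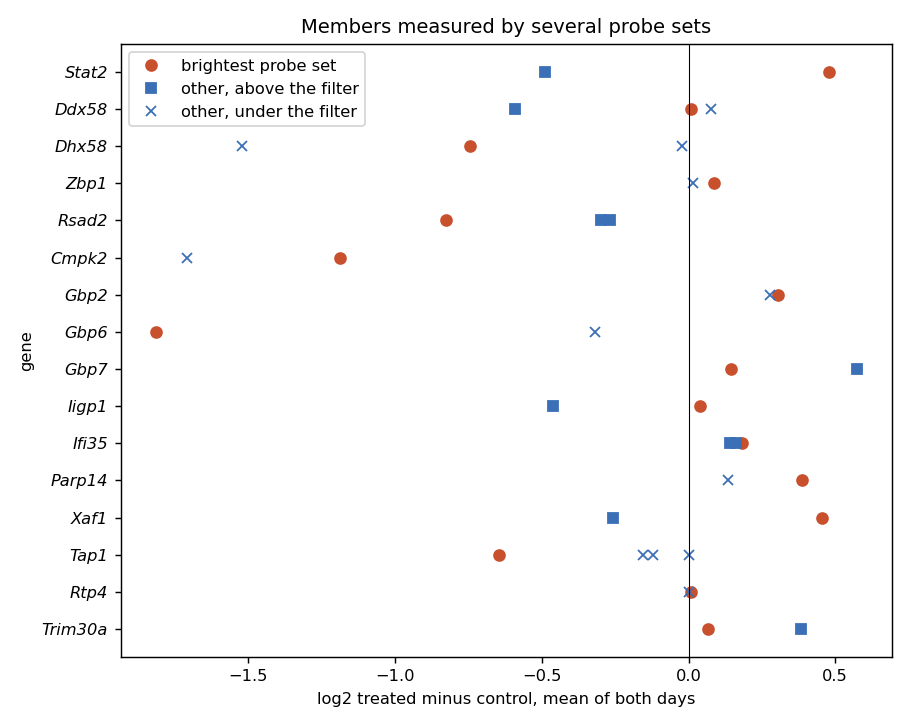
Log2 treated-minus-control difference, averaged over both days (horizontal axis), for each probe set of the 16 members with several (vertical axis). Red circles are the brightest probe set, used in all other values, blue squares other probe sets above the brightness filter and crosses those under it. Stat2 and Xaf1 have a circle right of 0 and a square left of 0.

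The genes around the members in the pathway gave no call in either direction in limma. Calls were 0 of 4 tested ligand genes (Ifna1, Ifna2 and the interleukins Il18 and Il12a) and 0 of 16 receptors and JAK-STAT genes. Ifnb1 and Ifng were too dim to be tested. Of the regulators, 0 of 10 sensing adaptors and kinases and 0 of 9 others (interferon regulatory factors, Irf2bp1, Batf2, Nlrc5 and Ciita) were called. In the remaining lists it was 0 of 51 further interferon-stimulated genes and 0 of 14 class I and immunoproteasome genes. Over both days the ligand genes Ifna2 and Ifna1 were at -1.85 and -0.80, and Il18 and Il12a at 0.14 and -0.11. The dimmer interferon alpha genes Ifna11 and Ifnab, not tested, were at -0.19 and -0.03. Ifna4, Ifna5 and Ifna9 lay under the floor on each array. In the receptor and JAK-STAT list, Socs3, a feedback inhibitor of cytokine receptors, was at 3.05 (adjusted p = 0.164) and Stat3 at 1.47 (adjusted p = 0.0865), while Ptpn2 was at 0.82, Ifngr2 at -0.73, Ifngr1 at 0.49, Ifnar1 at -0.22 and Jak1 at 0.17. Of the sensing genes, Trim25, Tbk1, Irak1 and Rela were at 0.71, 0.70, 0.50 and 0.41. Batf2, Ciita, Irf4 and Nlrc5 were at -1.68, -0.96, -0.75 and 0.57. Psmb8, H2-M3, H2-D1 and Psmb9 were at 0.997, 0.52, 0.51 and -0.46.

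In the list of further interferon-stimulated genes, the Ifitm3 relatives Ifitm1 and Ifitm2 were at 1.60 (adjusted p = 0.0699) and 1.39 (adjusted p = 0.0906). Ifitm2 was at 5761 and 7279 in the controls and at 14590 and 19763 in the treated livers, and Ifitm1 at 575.5 and 391.6 against 1552 and 1344. Both treated arrays were above both controls for these 2, whereas the treated day 7 array of Ifitm3 lay between its controls. Slfn4 and Herc6 were both at 1.12. The list of 65 measured genes had a median of 0.07 over both days, -0.08 at day 7 and 0.20 at day 10. Of the 65, 48 were lower on the control array of day 10 than on that of day 7, beside 50.7% of all measured genes.

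Some cell type markers also differed, and their part in the members' values was not tested. Of 14 macrophage and Kupffer cell markers, 3 rose (Cd163, C1qc and Vsig4, limma adjusted p between 0.0174 and 0.0302), beside 0.375% of all tested genes. Both treated arrays were above both controls for 12 of the 14, beside 19.0% of all measured genes. The summed signal was 26290 and 15509 in the controls against 55090 and 55287 in the treated livers. On the control arrays 13 of these 14 markers were lower at day 10 than at day 7, with a median of -0.74, beside 25 of 32 members and 50.7% of all measured genes. On the treated arrays 5 of the 14 were higher at day 10 than at day 7, beside 21 of 32 members and 51.2% of all measured genes. Of 7 markers of plasmacytoid and conventional dendritic cells, 4 were lower on both treated arrays, beside 22.1% of all measured genes, and 0 passed the test. Their summed signal was 2597 and 2861 against 1648 and 2459. That sum was lowest on the treated day 7 array, as was that of 5 cholangiocyte markers (996.5 and 1080 against 569.8 and 1289). For the 11 members with both treated arrays below both controls, a treated array had to be the lowest. It was the day 7 one for Ifit1, Rsad2, Dhx58, Bst2, Gbp6 and Ifih1, and the day 10 one for Ifit3, Cmpk2, Oasl1, Oasl2 and Tap1. Among members with overlapping groups, the treated day 7 array was also the lowest for Irf9, Zbp1 and Irgm1, and the treated day 10 array for Rtp4. The share of all genes lowest on either array was not counted. Of 11 sinusoidal endothelial markers 0 passed, with medians of -0.10 at day 7 and 0.55 at day 10. Of these 11, 10 were lower on the control array of day 10 than on that of day 7, beside 50.7% of all measured genes. On the treated arrays 10 were higher at day 10 than at day 7, beside 51.2%. Of 11 T and NK cell markers above the floor, 5 were tested and 0 passed, with a median of -0.01 over both days. Of 8 neutrophil markers above the floor, 7 were tested and S100a8 and S100a9 rose, beside 0.375% of all tested genes. Of 7 B and plasma cell markers, all tested, Jchain alone rose, and the list had a median of -0.03 over both days. Both treated arrays lay above both controls for 3 of these 7 and below them for 2, beside 19.0% and 22.1% of all measured genes. In the lists named here 1 marker, the neutrophil gene Camp, lay at the floor on each array.

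**Figure D5:**
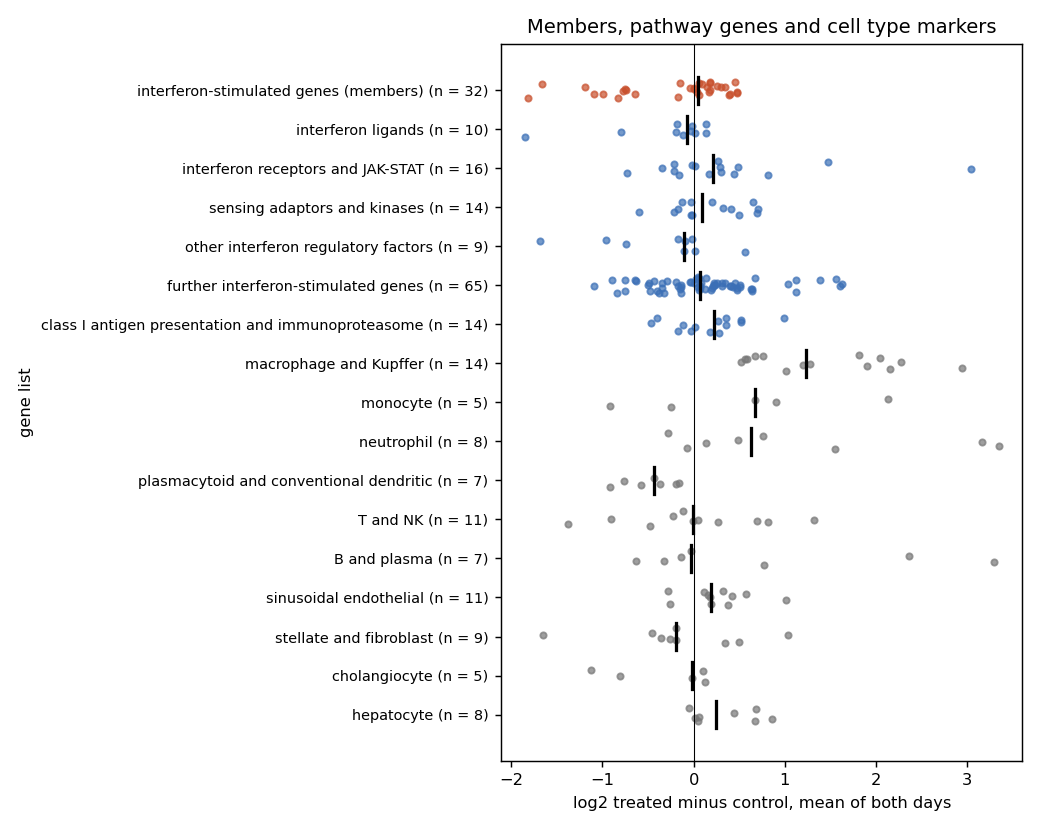
Log2 treated-minus-control difference, averaged over both days (horizontal axis), of each measured gene in each list (vertical axis), with the list's median as a black bar. Red points are the members, blue points other pathway genes and grey points cell type markers. The median of the members is 0.05 and that of the macrophage and Kupffer cell markers 1.24.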

How the data were processed

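Liver RNA was measured on 4 single-colour arrays, 1 per group and day. The authors deposited 1 intensity per probe set and array on a linear scale, made with MAS5 per the submitters' processing notes (no version is named there). On each array the values averaged 500 once the top and bottom 2% were trimmed, and on such a common scale a change in total RNA cannot be seen. Detection calls were not used here.

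Of 45101 probe sets, 64 were array controls, 34945 had 1 gene symbol in the platform annotation, 932 several and 9160 none. Probe sets with several or none entered no gene. Symbols were checked by Entrez ID against the RefSeq table of GRCm38.p6 (99.4% matched, 0 updated). From the deposited intensity values, log2 values were computed after signals under the 25th percentile (64.8) were set to it. The brightest probe set stood for its gene, and genes with a mean log2 above 7.67 (a signal of 204) were tested. limma 3.58.1 in R 4.3.3 (lmFit and trended eBayes, two-sided tests, Benjamini-Hochberg over 11993 genes) compared 2 arrays with 2, without a day term and with 2 residual degrees of freedom. Its fit was tested on simulated data. Single days were described by a 2-fold rule. Differences are treated minus control on the log2 scale. Figures used Python 3.11.15 and matplotlib 3.10.9. No 2 arrays held more than 0.118% identical values. Every value column belonged to a sample.

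The members, the pathway and marker lists, the rule for named genes and the alternatives were chosen with earlier results of these data known. Full values were planned for members at least 2-fold apart at both days, for the 6 highest and 6 lowest members, and for the 5 whose difference changed most between days (14 members in all). For each pathway list they were planned for the 4 with the largest difference, with Ifnar1, Ifngr1 and Jak1. A further gene of that rule is not reported here. Chosen after the members' values were seen were the non-overlap and day counts, the background of genes above the floor on at least 1 array, the 7 promoters printed, and Dhx58, Oasl1, Oasl2, Tap1, Irf1, Ifih1 and Usp18 as further members with values on each array. Alternatives were 2 scalings, 2 floors, 2 filters, the mean of probe sets, other probe sets, no trend, day as a block, each array left out, an adjusted p under 0.1, and 1.5-fold and 3-fold rules.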

Additional observations from a re-analysis of the deposited data

How the results depend on the processing

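No member passed limma (Benjamini-Hochberg adjusted p under 0.05) under any planned setting, other than 1 (Bst2) without the treated day 10 array, so leaving out an array gave between 0 and 1 members lower. The lowest adjusted p among the members ranged from 0.0141 to 0.649 over the settings and was 0.297 with day as a block. Over all genes, 45 were higher and 34 lower. The counts were 0 and 0 without a brightness filter (in limma, 907 higher and 1011 lower at an unadjusted p under 0.05, of which 0 and 4 members), 23 and 19 without the trend, 22 and 20 when probe sets were averaged, and 93 and 69 at an adjusted p under 0.1. With day as a block 24 were higher. Leaving out 1 array gave 13 to 197 higher and 9 to 269 lower. The labels give no replicate numbers, so day is the only pairing of the arrays.

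With a 1.5-fold rule in place of 2-fold, 1 member was higher (beside 14.5% of all measured genes) and 11 lower (3025 of 16785 genes) at day 7, 8 higher (17.4%) and 6 lower (15.6%) at day 10, and 6 lower at both days (4.88%). With a 3-fold rule 2 were lower at day 7 (2.62%), and 0 were higher at day 10 (2.91%), 0 lower at day 10 (2.35%) and 0 lower at both days (0.471%). With the mean of probe sets 1 was higher at day 10. Stat2 turned to -0.0051 when probe sets were averaged and to -0.49 in its other probe set, and Xaf1 to -0.26 in its other probe set. Leaving out 1 array, Irf9 ranged from -0.32 to 0.43, Zbp1 from -0.55 to 0.73 and Mx2 from -0.038 to 0.84. The others kept their sign, with ranges of 0.11 to 0.85 for Ifitm3, 0.03 to 0.74 for Parp14, 0.04 to 0.87 for Xaf1, 0.17 to 0.78 for Stat2, -1.23 to -0.42 for Rsad2, -1.54 to -0.65 for Bst2, -2.37 to -1.26 for Gbp6, -1.49 to -0.89 for Cmpk2, -1.21 to -0.78 for Ifit1, 0.24 to 0.44 for Igtp and -1.84 to -1.48 for Ifit3. The cause was not tested. Of 189 values of named members under the alternatives, 181 kept their direction and side of the threshold. This share was partly fixed in advance. Filters, the trend and the block leave the difference itself unchanged, and a value without a test could not change side. Filters, the trend and the block do not enter counts by fold, and a single day gives no value without 1 of its arrays. Low signals limit Gbp6, Oasl2, Mx1, Mx2 and Gbp3, which lie near the floor.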
